A study of Mus musculus with 3 samples.

Results

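The MHC class II genes described here were 10 mouse genes listed by name, and all 10 were among the 20284 genes that could be named on the array. H2-Aa and H2-Ab1 encode the alpha and beta chains of the class II molecule I-A, and H2-Eb1 encodes the beta chain of I-E. No gene of an I-E alpha chain was listed, and class II protein was not measured. Cd74 encodes the invariant chain, and H2-DMa, H2-DMb1 and H2-DMb2 the peptide loading molecule H2-DM. Ctss encodes the protease cathepsin S, Ciita the transcriptional activator of the class II genes, and Cd86 a costimulatory molecule. The 10 genes had 11 probes among 55681, since H2-Ab1 had 2, and each of these probes had 1 spot on each array.

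MHC class II molecules are displayed on the surface of dendritic cells, macrophages and B cells, where they show peptides from ingested proteins to CD4 T cells. The newly made alpha and beta chains are held by the invariant chain, cathepsin S trims that chain to a short peptide, and H2-DM swaps this peptide for others. Transcription of these genes is switched on by CIITA, which binds no DNA of its own but joins factors sitting on the X and Y boxes of their promoters, and which interferon gamma induces in many cells. In the liver, Kupffer cells, dendritic cells and B cells carry most class II protein, and hepatocytes normally carry little.

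Total RNA of mouse liver, strain c57BL6/J, was hybridised to 3 one-colour arrays, 1 for each of 3 groups. The groups expressed human YAP in the wild-type form, YAP (WT), or as the active mutants YAP (1SA) or YAP (2SA), in which serines that restrain YAP are replaced by alanine, and all livers were taken on day 2. The plasmid was delivered by hydrodynamic tail vein injection (HTVi) and carried a promoter active in hepatocytes, so immune cells of the liver were not its target and HTVi reaches only a portion of the hepatocytes. All 3 groups had been injected and no uninjected liver was analysed here. The study mainly used young adult male mice. Whether an array held RNA of 1 mouse or of a pool was not given in the labels. The YAP (WT) title alone carries a number, 2, and whether this array repeats another hybridisation is not stated. The probes of a mouse array were not designed to measure human YAP. With 1 array per group no spread between animals could be estimated, no test was run, and every difference below compares 3 arrays and not the 3 conditions.

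The 75th percentile of intensity was 290.8, 275.7 and 319.5 on the YAP (WT), YAP (1SA) and YAP (2SA) arrays, and each level below is the intensity of a probe divided by this percentile of its array. All 3 arrays lay on 1 slide, 28972 to 30784 probes were well above background on each, and no spot was saturated. Spots of probes printed 10 times differed within an array with a median SD of 0.07 on the log2 scale. From this spot error alone, 2 SD of a difference between 2 arrays came to 0.21. This value is called the limit of repeated spots below. It was 0.58 for probes with an intensity under 50. Counts of genes beyond the limit use 0.21 for every gene, so that members and all genes are counted alike. Variation among mice is not part of the limit, and neither are differences between arrays in RNA preparation, labelling or hybridisation. It rests on a median SD, so some probes vary more. A value beyond the limit is therefore not shown to exceed the error between arrays. Of the 10 members, 9 were well above background on all 3 arrays, the exception being H2-DMb2.

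The promoter sequence around the X and Y boxes is shown for the 4 members whose window held a Y core together with an X core or a CRE. Promoter windows from 250 bases before to 50 bases after the start site were read from a RefSeq table (GRCm38.p6) for 6 of the 9 members searched, in 7 windows. Windows of H2-Ab1, Ciita, Cd86 and Cd74 were not used here. Both strands were searched for the X core AACNGATG, the CRE TGACGTCA that can follow it, the Y core TGATTGG and the interferon response element, GAAA followed after any 2 bases by GAAA. These letters were chosen after the windows had been read, and no motif overlapped another in the stretches below, in which capitals mark the matches to the X core or CRE and to the Y core. The stretches are H2-Aa at chr17:34287852-34287922 on the minus strand and, on the plus strand, H2-Eb1 at chr17:34305753-34305827, H2-DMb1 at chr17:34153074-34153149 and H2-DMb2 at chr17:34145103-34145178, each upstream of its start site.
H2-Aa: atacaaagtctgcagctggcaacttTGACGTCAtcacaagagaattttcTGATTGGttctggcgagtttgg
H2-Eb1: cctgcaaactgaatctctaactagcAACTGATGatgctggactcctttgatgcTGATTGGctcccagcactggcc
H2-DMb1: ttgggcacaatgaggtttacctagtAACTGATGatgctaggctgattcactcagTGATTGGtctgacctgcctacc
H2-DMb2: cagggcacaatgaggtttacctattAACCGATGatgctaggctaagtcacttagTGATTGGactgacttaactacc

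The X core and the Y core stood together in the windows of H2-Eb1, H2-DMb1 and H2-DMb2, which is 3 of the 7 member windows, and in 61 of 32851 windows in all (0.186%). Nothing is read from this contrast, since the letters were chosen on the member windows. Alone, the X core was in 2.32% and the Y core in 7.82% of all windows. The first base of the X core lay 28 bases before that of the Y core in H2-Eb1 and 29 bases before it in H2-DMb1 and H2-DMb2. In H2-Aa the Y core was preceded by a CRE, a motif found in 1.79% of windows, with 24 bases between their first bases. The stretches of the paralogs H2-DMb1 and H2-DMb2 were identical at 65 of 76 bases. The window of Ctss held an X core at positions -207 to -200 from the start site and an interferon response element, present in 3.44% of windows, at -21 to -12. The 2 windows of H2-DMa held none of the 4 motifs. A match is a description of letters and not a measured binding site.

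**Figure D1:**
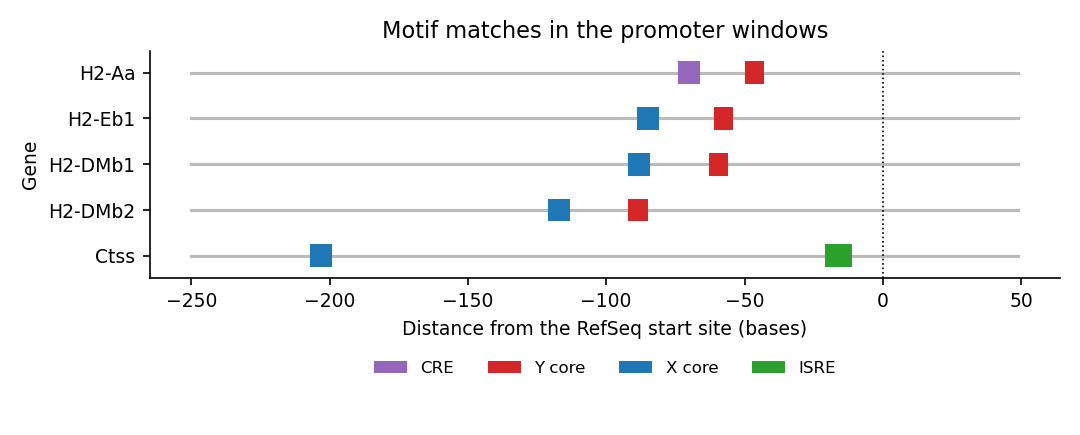
Positions of motif matches, in bases from the RefSeq start site (horizontal axis), in the promoter windows of the 5 class II genes that had a match (rows). Coloured boxes mark the X core, CRE, Y core and interferon response element (ISRE), and in H2-Eb1, H2-DMb1 and H2-DMb2 the X core lies 28 or 29 bases before the Y core.

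Across the members, the YAP (1SA) array held the lowest level of 8 of the 9 measured genes, where 34.4% of all 13626 genes measured on the 3 arrays were lowest. The exception was Ciita. For 6 of the 9 genes the YAP (1SA) level was below both other arrays by more than the limit of repeated spots, against 12.2% of all genes, and the 3 outside this count were Cd86, Ciita and H2-Aa. None of the members differed 2-fold between any pair of arrays in which it was measured. Which of the other arrays was highest differed from gene to gene, as the plot of levels on the 3 arrays shows.

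**Figure D2:**
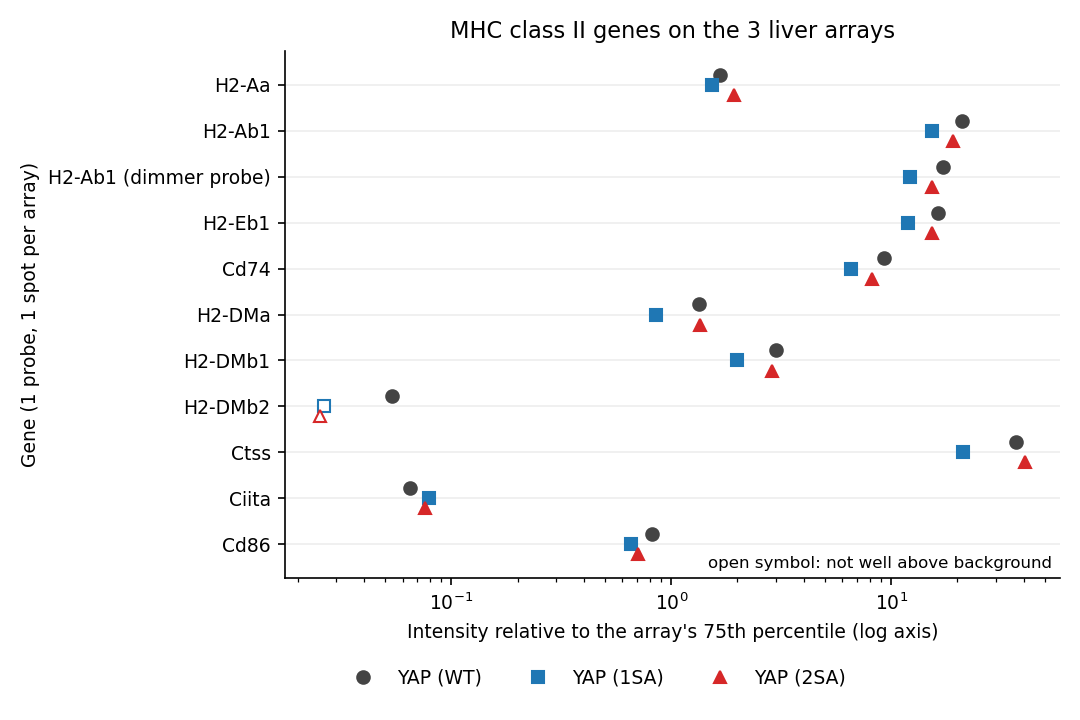
Level of each class II probe on the 3 arrays, as intensity divided by the array's 75th percentile (horizontal log axis), 1 spot and 1 array per point. The YAP (1SA) square lies left of both other symbols for every gene but Ciita and H2-DMb2, open symbols are not well above background, and distances between rows are not comparable because probes differ in brightness.

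Among the class II chains, the probe of H2-Aa, the alpha chain of I-A, had levels of 1.67, 1.53 and 1.92 on the YAP (WT), YAP (1SA) and YAP (2SA) arrays. The beta chain of I-A, H2-Ab1, had levels of 20.9, 15.3 and 19.0 by its brighter probe. Its dimmer probe had levels of 17.2, 12.2 and 15.4. YAP (1SA) was the lowest array for both genes, but YAP (2SA) was above YAP (WT) for H2-Aa and below it for H2-Ab1.

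H2-Eb1, the beta chain of I-E, had levels of 16.3, 11.9 and 15.3 in the same order. Cd74, the invariant chain that occupies the peptide groove until the endosome, had levels of 9.31, 6.54 and 8.14. Both had the array order of H2-Ab1, with YAP (WT) highest and YAP (1SA) lowest.

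Against YAP (WT), the YAP (1SA) level was lower by 1.37-fold for H2-Ab1 (log2 difference -0.46), by 1.36-fold for H2-Eb1 (-0.45) and by 1.42-fold for Cd74 (-0.51). The dimmer H2-Ab1 probe gave -0.50. These 3 genes lay within 0.06 of each other on the log2 scale and all were beyond the limit of repeated spots. H2-Aa stood apart at -0.13, inside the limit, although it neighbours H2-Ab1 on chromosome 17 and its product pairs with that of H2-Ab1. Between YAP (2SA) and YAP (1SA) the 4 genes lay closer together, with log2 differences of 0.33 for H2-Aa, 0.32 for H2-Ab1, 0.35 for H2-Eb1 and 0.32 for Cd74. These values spanned 0.04, against 0.38 for the 4 genes in YAP (1SA) minus YAP (WT) and 0.40 in YAP (2SA) minus YAP (WT), and all were beyond the limit.

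In the peptide loading group, H2-DMa, the alpha chain of H2-DM, had levels of 1.34, 0.853 and 1.34 on the YAP (WT), YAP (1SA) and YAP (2SA) arrays. H2-DMb1, the beta chain, had levels of 2.98, 1.99 and 2.87. For both genes YAP (1SA) was low and the other arrays were close together. The YAP (1SA) level was 1.57-fold below YAP (WT) for H2-DMa (log2 difference -0.65) and 1.49-fold below it for H2-DMb1 (-0.58). YAP (2SA) differed from YAP (WT) by 0.01 for H2-DMa and by -0.05 for H2-DMb1, both inside the limit of repeated spots. Between the mutants, YAP (2SA) was higher by 0.66 for H2-DMa and by 0.53 for H2-DMb1. Both values were above those of all 4 of H2-Aa, H2-Ab1, H2-Eb1 and Cd74.

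The other beta chain gene, H2-DMb2, had an intensity of 15.6 on the YAP (WT) array and was not well above background on the others, at 7.28 on YAP (1SA) and 8.11 on YAP (2SA). Each dim array was given the higher of the probe's own signal and the lowest signal well above background. Against YAP (WT), the level was then at least 1.44-fold lower in YAP (1SA) and 2.11-fold lower in YAP (2SA). The YAP (2SA) value uses the probe's own signal, which was not told from background, so it is not a strict bound. On the log2 scale these values are -0.53 and -1.08. The YAP (1SA) value lies inside the 0.58 that applies to dim probes, and the YAP (2SA) value lies beyond it. The probe's own levels were 0.0264 on YAP (1SA) and 0.0254 on YAP (2SA), so the fold values do not rank the mutants. The gene is counted in none of the summaries. H2-DMb1 and H2-DMb2 are close paralogs, and whether either probe also binds RNA of the other was not tested.

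Of the 9 measured members, Ctss had the largest differences of YAP (1SA) from both other arrays. The gene encodes cathepsin S, the protease that cuts the last piece of the invariant chain in antigen presenting cells. Its levels were 36.8 on YAP (WT), 21.3 on YAP (1SA) and 40.4 on YAP (2SA). The YAP (1SA) level was 1.73-fold below YAP (WT) (log2 difference -0.79) and 1.90-fold below YAP (2SA) (0.92 higher in YAP (2SA)). YAP (2SA) was above YAP (WT) by 0.13, inside the limit of repeated spots. Cathepsin S is also made in abundance by macrophages apart from antigen presentation.

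Ciita and Cd86 had other patterns. Ciita, the activator on which transcription of the class II genes depends, had levels of 0.0645 on YAP (WT), 0.0795 on YAP (1SA) and 0.0757 on YAP (2SA). Its intensities were 18.8, 21.9 and 24.2, and the differences of 0.30 in YAP (1SA) minus YAP (WT), 0.23 in YAP (2SA) minus YAP (WT) and -0.07 in YAP (2SA) minus YAP (1SA) all lay inside the 0.58 that applies to such dim probes. The level of Ciita was thus not separated between the arrays at this brightness.

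Cd86, a ligand of CD28 that gives T cells the signal they need beside the antigen, had levels of 0.816, 0.655 and 0.702 on the YAP (WT), YAP (1SA) and YAP (2SA) arrays. The YAP (1SA) level was 1.25-fold below YAP (WT) (log2 difference -0.32) and the YAP (2SA) level 1.16-fold below it (-0.22). With the main processing, Cd86 was the only measured member below YAP (WT) beyond the limit of repeated spots in both mutants. The mutants differed by 0.10, inside that limit. The place of Cd86 beyond the limit in YAP (2SA) did not hold under every alternative, as described with the processing below.

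**Figure D3:**
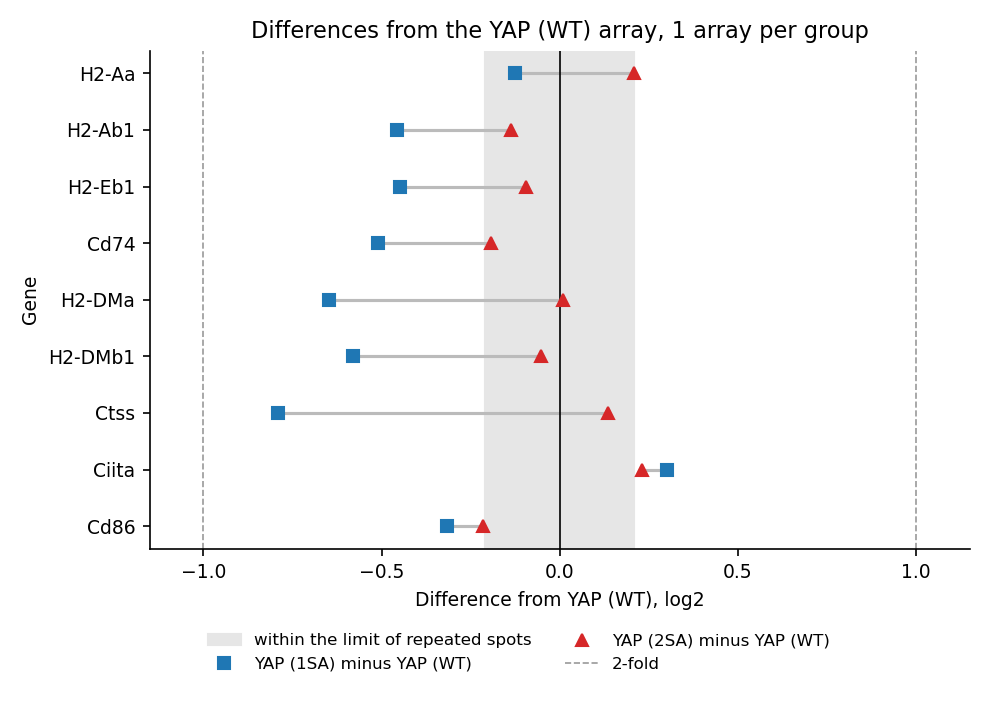
Log2 difference of the 9 measured class II genes from the YAP (WT) array (horizontal axis), squares for YAP (1SA), triangles for YAP (2SA), 1 array per group. Grey marks the limit of repeated spots, 0.21 either way in every row, and dashed lines mark 2-fold. The 0.58 that applies to the dim Ciita probe is not drawn, so both Ciita symbols lie right of the grey band though inside 0.58. Left of the band lie 7 squares against 1 triangle.

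In YAP (1SA) minus YAP (WT), the median over the 9 measured members was -0.46, and the median over all genes was -0.002. Of the members 8 were lower and 1 was higher, against 50.3% of all genes lower and 49.7% higher. Beyond the limit of repeated spots, 7 members were lower (18.9% of all genes) and 1 was higher (15.9% of all genes). The latter was the dim Ciita, at 0.30 inside the 0.58 of its brightness. No member was 2-fold lower or higher, with 1.14% and 0.727% of all genes past these thresholds. At 1.5-fold, 2 members were lower, H2-DMa and Ctss (4.67% of all genes), and none was higher (3.08%).

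In YAP (2SA) minus YAP (WT), the members had a median of -0.05 beside -0.03 for all genes. Of the members 5 were lower and 4 higher, and 56.4% of all genes were lower and 43.6% higher. Beyond the limit, 1 member was lower (Cd86 at -0.22, 19.1% of all genes) and 1 was higher (15.4% of all genes), while H2-Aa at 0.21 stood just inside it. The higher member was again the dim Ciita, at 0.23 inside the 0.58 of its brightness. No member was 2-fold higher or lower, against 1.12% and 0.543% of all genes, and none was 1.5-fold higher or lower, against 3.79% and 3.02%.

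In YAP (2SA) minus YAP (1SA), the median of the members was 0.33, and that of all genes was -0.03. Higher values were found for 8 members and a lower value for 1, against 45.6% of all genes higher and 54.4% lower. Of these, 7 were higher beyond the limit of repeated spots (21.1% of all genes) and 0 were lower beyond it (23.8% of all genes). No member was 2-fold higher or lower, with 2.47% and 1.12% of all genes past the thresholds. At 1.5-fold, 2 members were higher, again H2-DMa and Ctss (6.99% of all genes), and none was lower (4.56%). The comparisons share arrays, so they are not independent of each other.

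The other genes of the class II pathway were read from a list of 23, of which 20 were measured on all 3 arrays. Its median was -0.14 in YAP (1SA) minus YAP (WT), -0.03 in YAP (2SA) minus YAP (WT) and 0.05 in YAP (2SA) minus YAP (1SA). In YAP (1SA) minus YAP (WT), 16 of the 20 were lower (50.3% of all genes). Beyond the limit of repeated spots, 6 were lower (18.9% of all genes) and none was higher (15.9%). The 6 included the dim H2-Oa at -0.27. Among the proteins that prepare antigen, Ifi30, the endosomal thiol reductase, had levels of 7.46, 4.43 and 6.61 on the YAP (WT), YAP (1SA) and YAP (2SA) arrays. Lgmn, the asparagine endopeptidase of the endosome, had levels of 77.5, 50.8 and 71.0. Both had the array order of Cd74 and H2-Eb1, with YAP (1SA) lower than YAP (WT) by log2 differences of -0.75 and -0.61.

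H2-Oa, the alpha chain of the H2-DM inhibitor H2-O, had levels of 0.134, 0.111 and 0.211 in the same order, and YAP (2SA) was 0.93 above YAP (1SA). Of the costimulatory genes on the list, Cd40 had levels of 0.148, 0.0835 and 0.194. Icosl had levels of 0.280, 0.205 and 0.440. Cd40, whose product on antigen presenting cells receives help from T cells, and Icosl, the ligand of ICOS on T cells, were the 2 measured genes of the list past 2-fold, being 2.33-fold and 2.15-fold higher in YAP (2SA) than in YAP (1SA). Cd83, which stabilises class II and CD86 on the cell surface, was 0.62 higher in YAP (2SA) than in YAP (1SA). H2-Oa and Cd40 were dim, with intensities under 50 on at least 1 array, so the limit of 0.58 applies to them and the -0.27 of H2-Oa lies inside it. In contrast to Cd86, the last 3 genes, Cd40, Icosl and Cd83, were above YAP (WT) on the YAP (2SA) array, by 0.39, 0.65 and 0.28. The 0.39 of Cd40 also lies inside the 0.58 of dim probes. Not measured on all 3 arrays were H2-Eb2, Nfya, whose spot was left out on the YAP (1SA) array, and Rfx5, which encodes an X box factor. The probes of Rfx5, described after their values were seen, disagreed. The intensities of the first were 12.7, 122.2 and 6.05, well above background on YAP (1SA) only. Its level there was 10.2-fold that on YAP (WT) and 23.4-fold that on YAP (2SA). Both of the latter signals were not told from background, so these ratios are not strict bounds. The other Rfx5 probe was well above background on YAP (2SA) only, with an intensity of 20.3.

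The MHC class I list, whose products present peptides on nearly all cells, had 14 genes, all of them measured. All 14 were lower in YAP (1SA) than in YAP (WT) (50.3% of all genes), with a list median of -0.16. Beyond the limit 4 were lower (18.9% of all genes). Between the mutants 12 of 14 were higher in YAP (2SA) (45.6% of all genes), with a median of 0.15. None of the 14 was 2-fold different in any comparison. Psmb8, a subunit of the immunoproteasome, had levels of 26.9, 19.6 and 31.3 on the YAP (WT), YAP (1SA) and YAP (2SA) arrays. H2-D1, a class I heavy chain whose close paralogs may share its probe, had levels of 212.3, 179.1 and 236.3. YAP (2SA) exceeded YAP (1SA) by 0.67 for Psmb8, by 0.40 for H2-D1, by 0.28 for the peptide transporter subunit Tap2 and by 0.26 for the chaperone Calr. Psmb8 and Tap2 lie between H2-DMb1 and H2-Ab1 in the order of genes on chromosome 17.

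The interferon gamma list held 17 genes, 16 of them measured, with medians of -0.15, 0.07 and 0.36 in YAP (1SA) minus YAP (WT), YAP (2SA) minus YAP (WT) and YAP (2SA) minus YAP (1SA). Ifng itself was the gene not measured on all 3 arrays. Gbp2, a guanylate-binding protein induced by interferon gamma, had levels of 4.45, 1.93 and 4.76. Gbp3 of the same family had levels of 6.94, 3.74 and 8.11. Gbp2 was lower in YAP (1SA) than in YAP (WT) by a log2 difference of -1.21, and both genes were past 2-fold between the mutants, at 1.30 and 1.12. The transcription factor Irf8 was lower by a difference of -0.65 in YAP (1SA) than in YAP (WT), and the receptor chain Ifngr1 by -0.16. The chemokines Cxcl9 and Cxcl10 were higher in YAP (2SA) than in YAP (1SA) by 0.62 and 0.68. YAP (1SA) was the lowest array for 10 of the 16 genes of this list, 6 of them beyond the limit of repeated spots. For the class I list it was lowest for 12 of 14 genes, and beyond the limit for 2, beside 8 and 6 of the 9 class II members. Of all genes, 34.4% were lowest in YAP (1SA), and 12.2% were so beyond the limit.

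Markers of the cells that carry class II molecules differed between the arrays as well. Beside the marker counts, 50.3% of all genes were lower in YAP (1SA) than in YAP (WT), and 18.9% were lower beyond the limit. In YAP (2SA) minus YAP (1SA), 45.6% of all genes were higher. Of the pan-leukocyte markers, 9 of 10 were lower in YAP (1SA) than in YAP (WT), all 9 beyond the limit of repeated spots, and 10 of 10 were higher in YAP (2SA) than in YAP (1SA), with medians of -0.68 and 1.04. Their summed level was 98.1 on YAP (WT), 66.0 on YAP (1SA) and 121.1 on YAP (2SA), beside 90.2, 60.1 and 89.8 for the 9 class II members. The class II sum was led by the bright probe of Ctss, with levels of 36.8, 21.3 and 40.4 in the same order. H2-Ab1 came next, with 20.9, 15.3 and 19.0. The monocyte and macrophage markers had summed levels of 135.3, 87.4 and 147.1, and 9 of the 10 measured were lower in YAP (1SA) than in YAP (WT). The exception was Ccr2, chosen for mention after its value was seen, which was higher by 2.33. In bulk liver RNA, fewer cells of a type and less RNA per cell cannot be told apart, and the part of these cells in the class II differences was not tested.

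The Kupffer cell markers, 12 of 12 measured, had summed levels of 291.9, 209.0 and 182.9, with YAP (2SA) lowest, sums that the bright probes of Cd5l and Marco led. In YAP (1SA) minus YAP (WT), 10 of the 12 were lower, 9 of them beyond the limit, with a median of -0.44 near the -0.46 of the class II members. The 9 included the dim Cd163, at -0.31 inside the 0.58 of its brightness. In YAP (2SA) minus YAP (1SA) the median of the 12 was -0.36, with 5 higher and 7 lower. The complement genes C1qa, C1qb and C1qc and the macrophage marker Adgre1, 4 of the 12, were lowest in YAP (1SA) beyond the limit. Of the dendritic cell markers, 9 of 10 measured were lower in YAP (1SA) than in YAP (WT), with a median of -0.21, and Xcr1 and Irf4 were not measured on all 3 arrays. Their summed levels were 183.8, 179.9 and 178.7, of which the bright probe of Siglech made up 177.5, 175.4 and 170.9. The dimmer Siglech probe differed from it, at -0.63 in YAP (1SA) minus YAP (WT) and 0.86 in YAP (2SA) minus YAP (1SA). YAP (1SA) was the lowest array for 8 of the 10 dendritic cell genes, 4 of them beyond the limit (34.4% and 12.2% of all genes). In YAP (2SA) minus YAP (1SA) the dendritic cell median was 0.27, with 8 higher and 2 lower. The B cell markers had summed levels of 8.61, 8.43 and 7.44 over 8 of 10 genes, with Cd79a and Pax5 not measured on all arrays, and 6 of the 8 were higher in YAP (1SA) than in YAP (WT).

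The T cell markers had summed levels of 4.71, 4.79 and 4.61 over 6 of 8 genes, Cd8a and Trac being the others, sums that the bright probe of Cd3e led. Of the 6, 3 were lower in YAP (1SA) than in YAP (WT), all 3 beyond the limit, and 5 were higher in YAP (2SA) than in YAP (1SA), with a median of 0.36. The sinusoidal endothelial markers had summed levels of 94.2, 97.6 and 79.6. The hepatocyte markers, which define the labelled tissue, had summed levels of 5208, 5730 and 4658 over 10 of 10 genes. Hepatocyte markers were higher in YAP (1SA) than in YAP (WT) for 9 of 10 genes and lower in YAP (2SA) for 9 of 10, with medians of 0.10 and -0.12. The part of any of these lists in the class II differences was not tested.

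**Figure D4:**
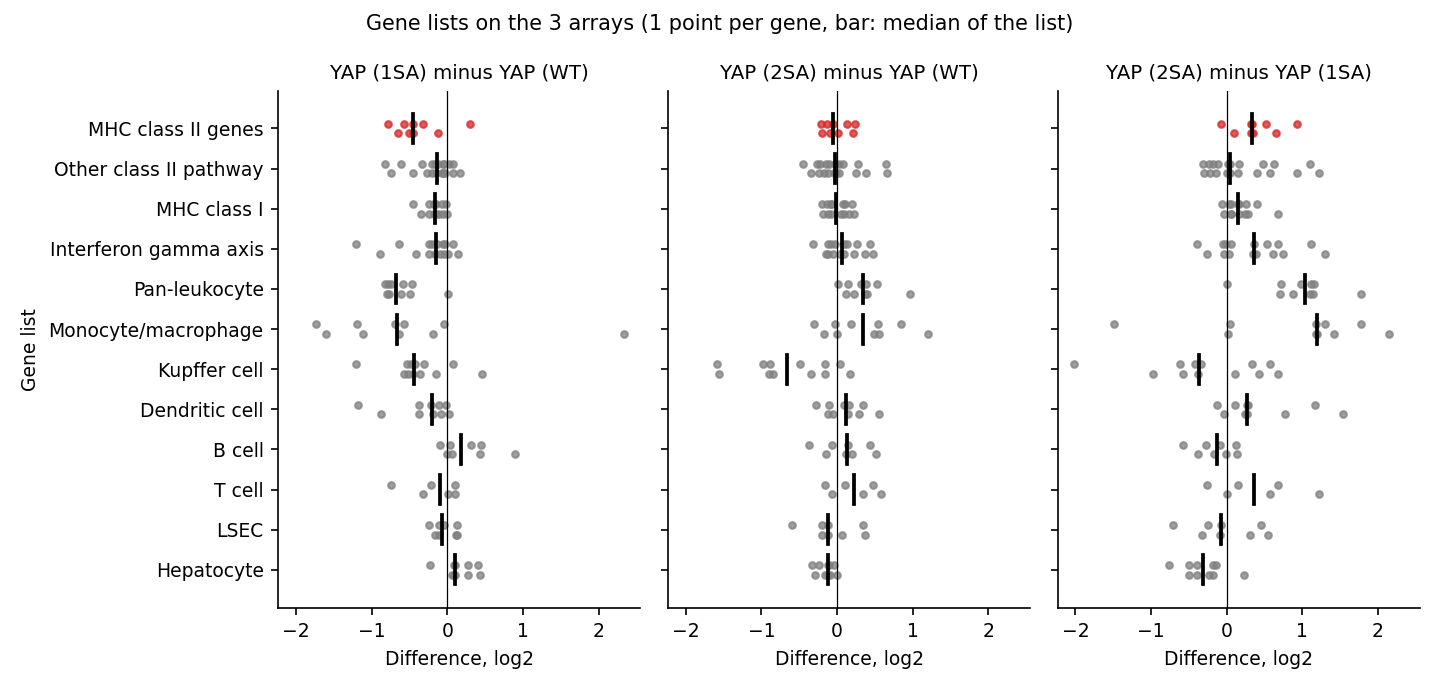
Log2 differences between arrays (horizontal axes) in the 3 comparisons for the class II genes (red), the related gene lists and the cell type marker lists, 1 point per measured gene and a black bar at each list's median. The class II median is -0.46, -0.05 and 0.33 from left to right, and the pan-leukocyte and monocyte/macrophage bars lie on the same side of 0 as the class II bar in the left and right panels.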

How the data were processed

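Liver RNA of the 3 groups was hybridised by the authors to Agilent SurePrint G3 mouse 8x60K arrays with Cy3, and images were read with Feature Extraction 10.10.1.1, per the file headers on probes of build mm9. In the deposited files the intensity (processed signal) of each spot was background-subtracted and detrended but not scaled between arrays. Multiplying it by a factor of 2.81 to 3.08, constant within an array, gives the authors' series matrix.

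Each array had 59305 non-control spots, of which 148 to 182 flagged as outliers were left out. The log2 intensity of a probe minus the log2 of its array's 75th percentile was used, and a probe was measured when at least 50% of its spots were well above background. Probes were named through RefSeq accessions and a GRCm38.p6 gene table used for names and gene order only, which matched 26762 of 55681 probes. The brightest probe measured on all 3 arrays stood for a gene, giving 13626 genes. Fold thresholds were 2, with 1.5 and 3 as alternatives. A probe measured on 1 side gave a bound. Where its own dim signal exceeded the lowest signal well above background, that dim signal was used and the value is not a strict bound. The limit of repeated spots was 2 SD of a difference, from the median SD within arrays of probes with 10 spots.

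The members, gene lists and comparisons were chosen with earlier results of these data known. All members are named with every probe. From the other class II, class I and interferon gamma lists, genes at least 2-fold different in any comparison and up to 4 others with the largest difference between the mutants are named. The computation of differences and counts was tested on simulated data with known differences. Alternatives were quantile normalisation, the array median, normexp with offset 50 (limma 3.58.1, R 4.3.3), the series matrix scaled or as deposited, other filters on dim or flagged spots, the mean of probes and other thresholds. Python 3.11.15, pandas 2.3.3, numpy 2.4.6 and matplotlib 3.10.9 were used. Precision is limited by the number of arrays, 1 per group.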

Additional observations from a re-analysis of the deposited data

Results flagged for a closer look

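For 3 members the mutants lay on opposite sides of the YAP (WT) array, with YAP (1SA) below it and YAP (2SA) above it. YAP (2SA) exceeded YAP (1SA) by 0.33 for H2-Aa, by 0.66 for H2-DMa and by 0.92 for Ctss on the log2 scale. This difference was not tested, there being no replicate arrays, and for H2-DMa and Ctss the YAP (2SA) value was within the limit of repeated spots from YAP (WT), as it was for H2-Aa.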

How the results depend on the processing

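There were 11 alternatives, and those that changed only the fold threshold gave no median. Medians of the class II members were compared over 10 settings, the main one included, on the log2 scale. They ranged from -0.51 to -0.42 in YAP (1SA) minus YAP (WT) and from -0.07 to -0.02 in YAP (2SA) minus YAP (WT). In YAP (2SA) minus YAP (1SA) they ranged from 0.31 to 0.41. The -0.51 came from a stricter filter on dim probes that kept 7 members, so it reflects another set of genes. At 1.5-fold, 2 members were lower in YAP (1SA) than in YAP (WT) and 2 were higher in YAP (2SA) than in YAP (1SA), in place of 0 at 2-fold. Without the filter on dim probes, 1 member, the dim H2-DMb2, was 2-fold lower in each of YAP (1SA) and YAP (2SA) than in YAP (WT). With quantile normalisation, and with the series matrix as deposited, an alternative chosen after seeing the data, 1 member, Ctss, was 2-fold higher in YAP (2SA) than in YAP (1SA), at 1.01 and 1.00 in place of 0.92. Of 237 values of single members under the alternatives, 235 moved by less than 0.10, the SD of a difference over all repeated spots, and 2 moved by more, though by less than the 0.29 of dim probes. Both were of Ciita with normexp, where it was 0.13 in YAP (1SA) minus YAP (WT) and -0.04 in YAP (2SA) minus YAP (WT). Many of the 237 could not move. The scaled series matrix is a constant multiple of the same intensities, and the filters on dim or flagged spots left each value of a measured member unchanged. The mean of probes could change only H2-Ab1, so the count of 235 is not a measure of stability. Ciita also changed sign with the series matrix as deposited, at 0.007 in YAP (2SA) minus YAP (1SA). Cd86 in YAP (2SA) minus YAP (WT) moved inside the limit of repeated spots under some alternatives. It was -0.17 with normexp, -0.20 with the array median and -0.19 with the series matrix as deposited. With quantile normalisation it stayed beyond the limit, at -0.212. Cd74 with normexp was below YAP (WT) beyond the limit in both mutants, at -0.57 in YAP (1SA) and -0.25 in YAP (2SA). A block for the slide was not run, as 1 slide held all arrays. No paired analysis was possible because there was 1 array in a group.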
